A study of Mus musculus with 3 samples.

Results

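This account concerns a set of GABAergic nuclei of the adult basolateral amygdala (BLA) that held RNA of *Foxp2* and *Rarb* and no RNA of *Gpr149*, *Pth2r* or *Sema3e*. They were chosen by raw counts of unique molecular identifiers (UMIs, 1 for each captured RNA molecule). Barcodes with more than 200 genes and less than 20% mitochondrial UMIs were kept. Of these, the GABAergic nuclei had at least 1 UMI of *Gad1* or *Gad2*, none of *Slc17a7* or *Slc17a6*, and under 0.1% of their UMIs from *Slc1a2* and *Slc1a3*. Members then needed at least 3 UMIs of *Foxp2*, at least 2 of *Rarb* and 0 of *Gpr149*, *Pth2r* and *Sema3e* together. That gave 143 members, 45 in library 2 and 98 in library 3, out of 1646 GABAergic nuclei of those libraries and 9199 barcodes in all 3.

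The data are snRNAseq of BLA tissue, with 10x 3' chemistry on isolated nuclei. The donors were male C57BL/6NRj mice aged 56 days, 4 brains went into a dataset, and there was no second condition, treatment or transgene. The 3 libraries are replicates 1, 2 and 3 of that single group, and the labels do not say whether they came from separate pools of brains, so the spread between libraries may be technical. They held 819, 3792 and 4588 barcodes, 8078394, 24354374 and 33049068 UMIs, and medians of 7725, 3315.5 and 4115.5 UMIs per barcode. Each library shared a few barcodes with the others (2 between libraries 1 and 2, 1 between 1 and 3, 7 between 2 and 3), and the members of libraries 2 and 3 shared 0.

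Library 1 stood apart and gave no member. Of its 819 kept nuclei, 57 met the minimums for *Foxp2*, *Rarb* and *Gad1*-*Gad2*, and all 57 also held *Slc17a7* or *Slc17a6*, the vesicular glutamate transporters, with a median of 7 UMIs. Library 2 had 112 such nuclei, 19 with a transporter UMI, and library 3 had 333, 88 with one. Nuclei with at least 10 UMIs of oligodendrocyte genes, which should lack these transporters, carried them in 98.7% of cases in library 1, against 11.7% in library 2 and 15.7% in library 3. The criterion of 0 transporter UMIs removed all 57 and left 19 GABAergic nuclei in library 1. The lack of members there thus follows from the rule and sets no limit on their share. All values below are from libraries 2 and 3.

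GABAergic nuclei of the same libraries served for comparison in 3 groups. The first had 0 UMIs of *Foxp2* (329 and 396 nuclei in libraries 2 and 3). The second met the *Foxp2* and *Rarb* minimums and had at least 1 UMI of *Gpr149*, *Pth2r* or *Sema3e* (47 and 137 nuclei). The third had at least 3 UMIs of *Foxp2* and 0 of *Rarb* (104 and 257 nuclei). Median UMIs per nucleus were 7018 and 6076.5 in members, 5695 and 6518.5 in nuclei without *Foxp2*, 7564 and 7343 in nuclei with *Gpr149*, *Pth2r* or *Sema3e*, and 6479.5 and 5615 in *Foxp2* nuclei without *Rarb*. UMIs were summed over the nuclei of a group in a library and scaled to 1000000 UMIs per sum (CPM).

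*Foxp2* encodes a forkhead transcription factor known from striatal projection neurons, from intercalated cells of the amygdala and from layer 6 of the cortex. *Rarb* encodes a nuclear receptor for retinoic acid that pairs with a retinoid X receptor and acts in the formation of striatal neurons. Retinoic acid made by dehydrogenases binds such pairs on response elements in DNA and so switches genes on, and *Rarb* is itself a classical target through an element in its promoter. GABAergic neurons around the BLA fall into interneurons, which often carry peptides such as somatostatin, and projection neurons with striatum-like features, among them the intercalated cell clusters with *Foxp2*, *Tshz1*, *Meis2* and *Oprm1*. In striatum, spiny projection neurons are commonly split into *Drd1* and *Drd2* types, with a further eccentric type marked by *Otof*, *Col11a1* and *Tshz1*.

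The retinoic acid response element of the *Rarb* promoter is shown because *Rarb* is the gene that by rule sets members apart from the *Foxp2* nuclei without it. RefSeq's promoter table (GRCm38.p6) holds 32851 windows of 250 bases before and 50 after a start site. The element, 2 half-sites of the retinoid receptor 5 bases apart (DR5), was searched on both strands and found in 32 windows (0.0974%). In *Rarb* it lies before the start site, on the strand of the gene (minus), with 36 bases between them, at chr14:16575507-16575535 with its flanks:
*Rarb*: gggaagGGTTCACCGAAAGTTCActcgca
Capitals mark the 17 bases of the element. A match is a description of the sequence and says nothing of use in these nuclei.

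Members made up 7.44% of GABAergic nuclei in library 2 (exact Clopper-Pearson 95% interval 5.48 to 9.83) and 9.41% in library 3 (7.71 to 11.4), a mean of 8.43% ± 1.40 (SD, n = 2 libraries). The libraries overlapped in their intervals, which cover counting error only. The genes of the rule describe the choice and were not tested. *Foxp2* (chr6:14901349-15441977, GRCm38) had 3 to 28 UMIs per member in library 2 (median 11) and 3 to 54 in library 3 (median 12.5). *Rarb* (chr14:16430839-16819156) had 2 to 14 UMIs (median 4) and 2 to 27 (median 3). *Gad1* was found in 57.8% and 54.1% of members and *Gad2* in 75.6% and 81.6%.

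Nuclei just inside and just outside the thresholds are few, and their values are given as a description. Members with exactly 2 UMIs of *Rarb* had 2228 and 2711 CPM of *Meis2* in libraries 2 and 3, and nuclei with 1 UMI of *Rarb* that met the other criteria had 2559 and 3142. *Bcl11b* had 272 and 161 CPM in the former and 114 and 177 in the latter, and *Sulf1* 190.2 and 64.2 against 60.9 and 48.3. At the *Foxp2* threshold, 2 and 5 members with exactly 3 UMIs had 1708 and 3298 CPM of *Meis2*, and 2 and 3 nuclei with 2 UMIs had 1896 and 1507. *Col6a1* had 149.4 and 103 CPM just inside the *Rarb* threshold and 152 and 84.5 just outside, *Casz1* 95.1 and 57.8 against 38.1 and 60.3, and *Gulp1* 54.3 and 103 against 99 and 84.5. Of the 4 label markers, *Sulf1* alone kept its order across this threshold in both libraries, and *Bcl11b* did not keep its order at either threshold. Nuclei with 1 UMI of *Gpr149*, *Pth2r* or *Sema3e* in all had 3040 and 2804 CPM of *Meis2*. In library 2, 6 of 47 nuclei in the second comparison group owed their place to a single such UMI, and in library 3, 40 of 137.

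The markers named for these nuclei were found in some members only. *Sulf1*, an extracellular sulfatase of heparan sulfate, was found in 35.6% of members in library 2 (95% interval 21.9 to 51.2) and 24.5% in library 3 (16.4 to 34.2). *Gulp1*, an adaptor protein of engulfment, was found in 35.6% (21.9 to 51.2) and 36.7% (27.2 to 47.1). *Col6a1*, a collagen chain, was found in 53.3% (37.9 to 68.3) and 45.9% (35.8 to 56.3), and *Casz1*, a zinc finger transcription factor, in 33.3% and 24.5%. In nuclei without *Foxp2* these shares lay between 4.04% and 9.85%, so each marker was more frequent in members in both libraries. In oligodendrocyte nuclei, which give the background from free RNA at median depths of 2622 and 2248 UMIs, they lay between 0% (0 of 174 nuclei for *Casz1* in library 2) and 3.88%. This set held 174 and 309 nuclei, fewer than the 214 and 414 described above with at least 10 UMIs of oligodendrocyte genes. With each nucleus thinned to 2500 UMIs, which left out 1 member per library, the shares in members were 19.7% and 13.6% for *Sulf1*, 20.9% and 18.4% for *Gulp1*, 26.3% and 21.3% for *Col6a1*, and 18.9% and 12.6% for *Casz1*. The shares given for other nuclei are at their full depth and were not matched to these. The label was chosen with values of these nuclei in view, so these shares describe it and carry no test.

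All 4 markers were also frequent in the Foxp2-Rarb nuclei with *Gpr149*, *Pth2r* or *Sema3e*. There, *Col6a1* was found in 63.8% and 45.3%, *Casz1* in 42.6% and 36.5%, *Sulf1* in 40.4% and 41.6%, and *Gulp1* in 40.4% and 21.2%. In *Foxp2* nuclei without *Rarb*, *Col6a1* was found in 13.5% and 10.9% and *Casz1* in 5.77% and 5.06%, while *Sulf1* was found in 21.2% and 19.1% and *Gulp1* in 20.2% and 17.5%. All 4 shares were lower there than in members, in both libraries.

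Against GABAergic nuclei without *Foxp2*, members were higher in 7 of 17 striatal transcription factors, in all 5 tested intercalated cell markers and in 8 of 23 dopamine and cAMP genes, and lower in 20 of 25 interneuron genes. *Meis2*, a homeobox factor of lateral ganglionic eminence derivatives, had 2525 and 2634 CPM in members and 267 and 289 in nuclei without *Foxp2*. The groups did not overlap, and *Meis2* was 9.41-fold higher (log2 fold change 3.23 ± 0.27 SE, edgeR adjusted p = 4.94e-07). *Meis2* was found in every member, in 27.1% and 32.3% of nuclei without *Foxp2* and in 19.5% and 21.0% of oligodendrocyte nuclei. Of 9070 genes tested, 926 were called (10.2%), 464 higher (5.12%) and 462 lower (5.09%) in members, and all 926 had the same direction in both libraries. Called genes are picked from these same sums, so a shared direction is largely set by the call, here and below. With the library as a block, 1448 were called (16%), 705 higher (7.77%) and 743 lower (8.19%). Without a filter on low counts the calls were 417 higher and 658 lower, and DESeq2 called 607.

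Of 17 striatal transcription factors tested, 7 rose and 2 fell, with a median log2 fold change of 0.47 against -0.02 over all genes tested. *Pbx3*, a partner of Meis proteins, had 1215 and 1606 CPM in members and 121 and 151 in nuclei without *Foxp2* (10.6-fold, edgeR adjusted p = 7.95e-07). *Tshz1*, a zinc finger factor needed for intercalated cells, had 382 and 386 against 41.2 and 35.6 CPM (10.2-fold, adjusted p = 4.30e-08). Others that rose were *Rxrg*, *Six3* and *Meis1*, by 4.73-, 3.97- and 3.57-fold. *Dlx1*, a homeobox factor of GABAergic neurons, and *Dlx6os1*, a noncoding RNA of the Dlx locus, fell. *Foxp1*, the sister gene of *Foxp2*, had 328 and 348 CPM in members and 424 and 456 in the comparison nuclei (adjusted p = 0.543), and *Bcl11b*, a factor of striatal projection neurons, had 191 and 204 against 205 and 159.7 (adjusted p = 0.723). Members were thus high in Meis, Pbx and Tshz factors, with no call for *Foxp1* or *Bcl11b*.

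Among 6 tested genes of the retinoid pathway other than *Rarb*, *Rxrg*, a partner receptor, and *Rdh10*, which makes retinaldehyde from retinol, rose and none fell. *Rxrg* had 35.8 and 34.2 CPM in members and 9.89 and 5.51 in nuclei without *Foxp2* (adjusted p = 4.61e-04). *Rdh10* had 32.8 and 21.9 against 11.1 and 9.07 (2.63-fold, adjusted p = 0.0298). The other 4 did not pass the test, and the median of the 6 was 0.60. None of the 6 was called against *Foxp2* nuclei without *Rarb* (median 0.35), with or without the library as a block. The same held against Foxp2-Rarb nuclei with *Gpr149*, *Pth2r* or *Sema3e* (median 0.45).

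Of 23 genes of dopamine and cAMP signalling, 8 rose and 1 fell (median 0.44), and 10 rose and 2 fell with the library as a block. *Drd1*, the excitatory dopamine receptor, had 29.8 and 24.6 CPM in members and 2.47 and 2.59 in nuclei without *Foxp2* (10.4-fold, edgeR adjusted p = 9.60e-05). It was found in only 15.6% and 14.3% of members, against 1.82% and 2.02% of the comparison nuclei and 0.575% and 0.971% of oligodendrocyte nuclei. *Drd3*, an inhibitory dopamine receptor, had 29.8 and 43.8 against 2.89 and 1.62 CPM (adjusted p = 5.19e-05). *Rgs9*, *Pde2a*, *Pde4b*, *Arpp21*, *Itpr1* and *Adcy5* rose by 2.00- to 3.23-fold. *Drd2* fell, with 2 UMIs in all members and 96 in the comparison nuclei (ratio 9.28, exact 95% interval 2.50 to 77.7). Intervals of UMI ratios, here and below, treat each UMI as independent. They cover counting error only, not the spread between nuclei or libraries.

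Several genes that define striatal or central amygdala projection neurons were detected in few members at these depths. *Adora2a*, the adenosine receptor of *Drd2* neurons, was found in 2.22% and 2.04% of members, *Ppp1r1b*, which encodes DARPP-32, in 2.22% and 1.02%, and *Tac1*, the substance P precursor, in 2.22% and 1.02%. *Prkcd*, a kinase of central amygdala neurons, was found in 0 of 45 and 0 of 98 members, which allows shares of up to 6.67% and 3.06% of nuclei with a UMI (3 counts of the nuclei) and sets no limit on nuclei that express it, and *Isl1*, a factor of *Drd1* neurons, in 1 of 45 and 0 of 98. In oligodendrocyte nuclei *Adora2a* and *Tac1* were found in 0% and 0.324%, *Ppp1r1b* in 0.575% and 0.324%, *Prkcd* in 1.72% and 0%, and *Isl1* in 0% of both libraries. *Penk*, the enkephalin precursor, was found in 26.7% and 27.6% of members and in 4.86% and 5.81% of nuclei without *Foxp2*, and its level was 3.99-fold higher (59.7 and 53.4 against 11.5 and 16.5 CPM, adjusted p = 9.05e-04). A split of members into *Drd1* nuclei and *Drd2* or *Adora2a* nuclei gave 21 and 3 nuclei and could not be fitted.

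All 5 tested markers of intercalated cells rose: *Meis2*, *Tshz1*, *Drd1*, *Pax6* and *Oprm1* (median 3.23). *Oprm1*, the mu opioid receptor, had 197 and 168 CPM against 58.5 and 71.9 (2.80-fold, edgeR adjusted p = 1.44e-04), and *Pax6*, a paired-box factor, had 26.9 and 28.7 against 10.7 and 5.83 (3.56-fold, adjusted p = 0.00594). *Adra2a* and *Scn4b*, the other genes of that list, were at 0 in members of library 2 and did not pass the filter. Of 7 markers of eccentric spiny projection neurons, *Tshz1*, *Otof*, *Col11a1* and *Cacng5* rose, and *Adarb2* and *Htr7* fell. *Otof*, a calcium sensor of vesicle release, had 459.6 and 244 CPM in members and 52.8 and 37.9 in nuclei without *Foxp2*. Of 6 striosome genes, 3 rose (*Lypd1*, *Oprm1* and *Sema5b*) and none fell. Of 4 central amygdala genes, *Penk* and *Wfs1* rose and *Sst* fell. The lists for direct pathway, indirect pathway and matrix neurons moved both ways, with *Drd1* against *Eya1*, *Gucy1a1* and *Penk* against *Drd2* and *Ptprm*, and *Sv2b* against *Calb1*.

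**Figure D1:**
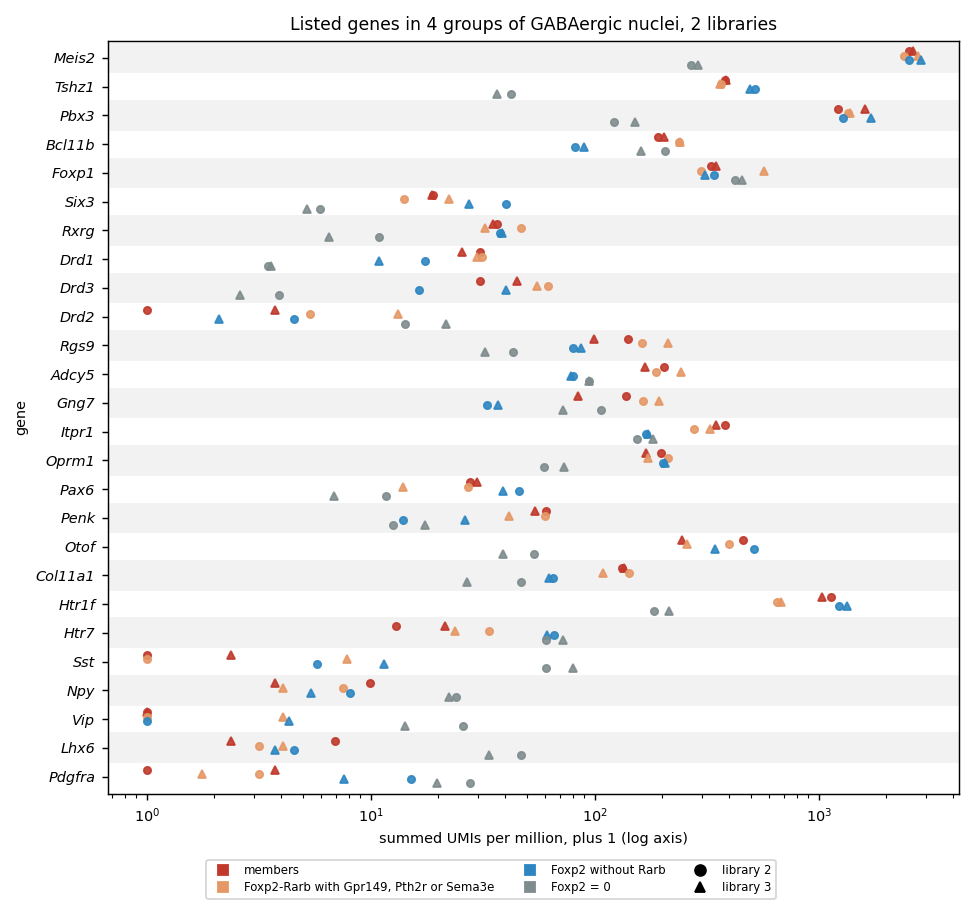
CPM plus 1 (log axis) of 26 listed genes in 4 groups of GABAergic nuclei, with circles for library 2 and triangles for library 3. For *Meis2*, *Tshz1* and *Pbx3* the 3 Foxp2 groups sit together above the nuclei without *Foxp2*, while *Bcl11b*, *Adcy5*, *Gng7* and *Itpr1* are lower in *Foxp2* nuclei without *Rarb* than in members.

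Among 25 interneuron genes tested, 20 fell and none rose (median log2 fold change -2.24), and 22 fell with the library as a block. *Sst*, the somatostatin gene, had 0 and 1.37 CPM in members and 59.8 and 78.7 in nuclei without *Foxp2*. These came from 1 UMI against 388 (ratio 75.0, exact 95% interval 13.4 to 2970, counting error only). *Vip*, vasoactive intestinal peptide, had 0 UMIs in members and 101 in the comparison nuclei, at least 6.51-fold lower with a floor of 3 UMIs over both libraries. *Lhx6*, the factor of interneurons from the medial ganglionic eminence, had 5.97 and 1.37 against 45.8 and 32.7 CPM (edgeR adjusted p = 2.63e-04). *Prox1*, of caudal origin, had 5.97 and 4.11 against 60.2 and 56.7 (adjusted p = 2.10e-04). *Reln*, *Maf*, *Satb1* and *Elfn1* fell by 9.86-, 13.8-, 3.91- and 6.53-fold. Other genes of the list stayed abundant in members. *Adarb2*, of caudal interneurons, fell to 1761 and 1967 CPM against 4866 and 5597, and *Erbb4*, the neuregulin receptor, had 7460.3 and 8421 against 7036 and 7453 (adjusted p = 0.818). The list summed to 10561 and 11575 CPM in members and 16965 and 18018 in nuclei without *Foxp2*, with *Erbb4* the most abundant in both.

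Receptor and channel genes moved in both directions. Of 18 modulator receptors, 4 rose and 6 fell. *Htr1f*, an inhibitory serotonin receptor, had 1134 and 1033 CPM in members and 183 and 214 in nuclei without *Foxp2* (5.50-fold, edgeR adjusted p = 2.46e-06), and *Cckbr* and *Crhr1*, receptors for cholecystokinin and corticotropin-releasing hormone, rose by 4.59- and 4.13-fold. *Chrm3*, an excitatory muscarinic receptor, had 89.5 and 80.8 against 565 and 684 CPM (7.27-fold lower, adjusted p = 5.00e-07), and *Htr2a*, *Htr2c*, *Htr7*, *Cnr1* and *Adra1b* fell as well. Of 34 potassium channel genes, 11 rose and 7 fell. *Kcnh5* had 448 and 408 against 50.3 and 58.6 CPM (7.90-fold, adjusted p = 3.15e-07), and *Kcnd2*, which carries A-type current, had 7756 and 9576 against 2121 and 2392 (3.91-fold, adjusted p = 2.09e-04). *Kcnmb2*, *Kcnc1* and *Kcnc2*, the last 2 of fast-spiking cells, fell. Of 22 glutamate receptor genes, *Grm8* and *Grm4*, both metabotropic receptors of group III, rose, and *Gria3*, *Gria4*, *Grik1*, *Grin2d* and *Grin3a* fell. Of 14 GABA receptor genes, 2 rose (*Gabra2* and *Gabrg3*) and 2 fell, among them *Gabbr2*. Of 33 axon guidance genes, 5 rose, among them *Slit2* (519 and 620.1 against 111 and 129 CPM, adjusted p = 2.43e-05), and 7 fell. With the library as a block, 6 modulator receptors rose and 7 fell, 13 potassium channel genes rose and 7 fell, 6 glutamate receptor genes rose and 6 fell, 3 GABA receptor genes rose and 3 fell, and 8 axon guidance genes rose and 11 fell. Medians of these lists were -0.76 for modulator receptors (-0.74 with genes at 0 set to their bound), 0.17 for potassium channels, 0.02 for glutamate receptors, -0.00 for GABA receptors and -0.19 for axon guidance.

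Over all genes tested, those with the largest rise by the naming rule were *Npffr2*, *Chst9*, *Baz1a*, *Drd3*, *Adamts9*, *Abi3bp*, *Eya2*, *Rai14*, *C79798*, *Car12*, *Itga11* and *Atp6v1c2*. *Npffr2*, a receptor of RFamide peptides (chr5:89527429-89583740), had 53.7 and 54.8 CPM in members and 0.825 and 0.324 in nuclei without *Foxp2*. These came from 58 UMIs against 3 (ratio 100, exact 95% interval 32.6 to 499, counting error only). *Chst9*, a sulfotransferase of carbohydrate chains, had 952 and 717 against 20.6 and 26.6 CPM (35.0-fold, edgeR adjusted p = 2.30e-09). The other 10 rose by 10.6- to 19.9-fold, with levels in members from 23.3 to 89.5 CPM. Means in *Foxp2* nuclei without *Rarb* were 1045 CPM for *Chst9* (835 in members), 163 for *Rai14* (80.4) and 94.1 for *Adamts9* (56.4). They were 55.1 for *Npffr2* (54.2) and 62.2 for *Itga11* (59.8), and below those of members for the rest of these genes. In nuclei with *Gpr149*, *Pth2r* or *Sema3e*, *Drd3* (57.6, and 36.8 in members) and *Adamts9* (90.1) alone had higher means than in members. Some folds differed between the libraries. *Adamts9* had 38.8 and 73.9 against 5.77 and 1.94 CPM, and *Itga11* 89.5 and 30.1 against 4.54 and 4.86. Of the *Baz1a* UMIs in members of library 2, 66.7% came from 1 nucleus.

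Genes with the largest fall included *Pde5a*, *Sfta3-ps*, *Sst*, *Pde3a*, *Col19a1*, *Kcns3*, *Dpf3*, *Ltbp1*, *Heg1*, *Prkcq* and *Nxph2*. *Pde5a*, which degrades cyclic GMP, had 0 UMIs in members and 65.6 and 53.8 CPM in nuclei without *Foxp2*, at least 20.9-fold lower. *Sfta3-ps* was at 0 UMIs too and at least 11.3-fold lower. *Col19a1*, a collagen chain, had 35.8 and 2.74 against 466 and 433 CPM (edgeR adjusted p = 9.73e-07). Of its 12 UMIs in members of library 2, 10 came from 1 nucleus. The others named had 1 to 3 UMIs in all members. Of the genes named for the largest changes, *Adamts9*, *Drd3*, *Itga11* and *Rai14* lost their call against all other GABAergic nuclei, and *Nxph2* in DESeq2.

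Markers of glia moved with this comparison. All 4 markers of oligodendrocyte precursor cells (OPCs) were lower in members: *Pdgfra* (0 and 2.74 against 26.8 and 18.8 CPM), *Cspg4* (0 and 1.37 against 28.9 and 11.7), *Vcan* and *Lhfpl3*. Their summed level was 361 and 372 CPM in members and 937 and 855 in nuclei without *Foxp2*, and the most abundant was *Lhfpl3* in both. *Pdgfra* and *Cspg4* were at 0 in members of library 2. Of 6 oligodendrocyte markers, *Mag* fell and 5 did not pass the test (3 fell with the library as a block). The list summed to 167 and 175 CPM in members, with *Mbp* the most abundant, *Mag* at 0 in library 2, and to 239.5 and 349 in the comparison nuclei. Of 2 astrocyte markers tested, *Slc4a4*, a bicarbonate transporter, rose (298 and 304 against 97.3 and 103). *Gfap* was at 0 in both libraries, in members and in nuclei without *Foxp2* alike. *Sv2b*, a synaptic vesicle gene listed for glutamatergic neurons, rose too, and *Neurod6* and *Tbr1* of that list were at 0 in members of both libraries. Of 3 microglial genes and 1 vascular gene tested, none was called. With nuclei without *Foxp2* that held a UMI of *Pdgfra*, *Cspg4*, *Mag* or *Mog* left out, 869 of 9014 genes were called, 421 higher and 448 lower.

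**Figure D2:**
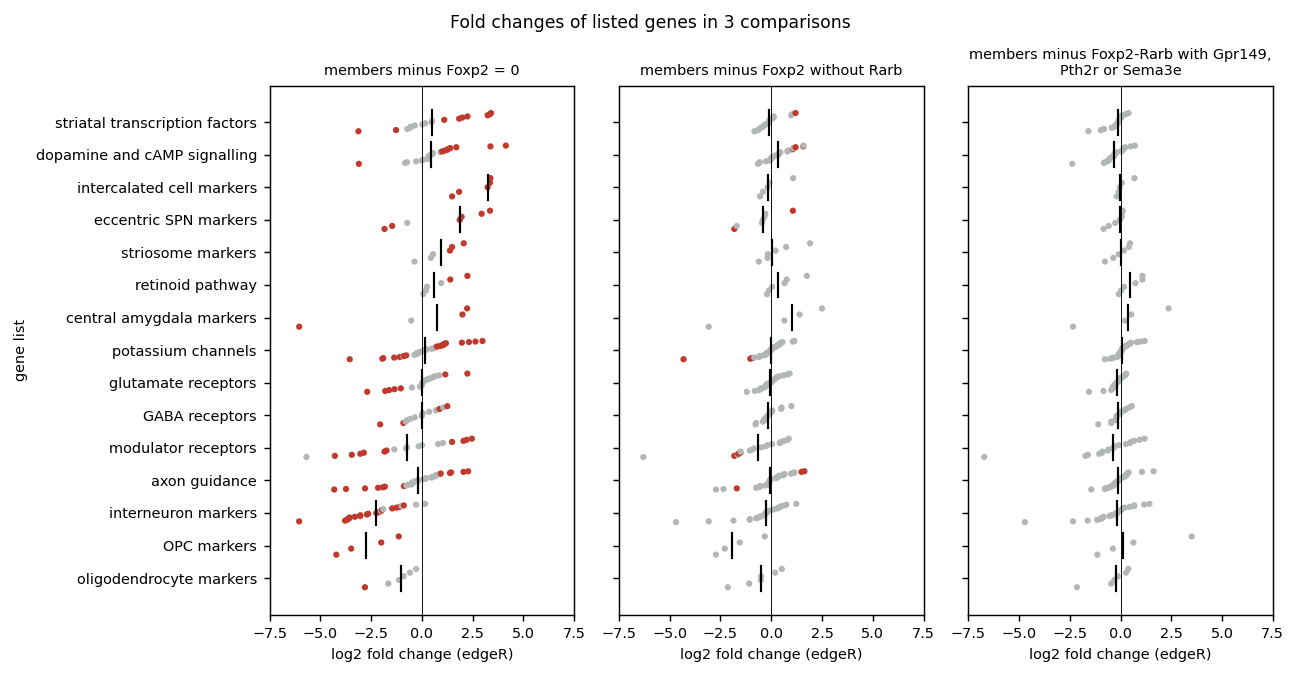
Log2 fold change (edgeR) of each tested gene of 15 lists in 3 comparisons of members with other GABAergic nuclei, in red where the adjusted p was under 0.05, with a black bar at the median of each list. Calls are many against nuclei without *Foxp2*, few against *Foxp2* nuclei without *Rarb*, and none among these genes against Foxp2-Rarb nuclei with *Gpr149*, *Pth2r* or *Sema3e*.

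The second question was how members differ from other *Foxp2* nuclei. Against *Foxp2* nuclei without *Rarb*, members were higher in *Bcl11b*, *Adcy5*, *Gng7*, *Itpr1*, *Slit2* and *Slit3* and lower in *Sema6d*, *Chrm2*, *Chrm3*, *Kcnh8*, *Kcnn2* and *Kcnh5*. *Meis2* had 2523 and 2854 CPM in nuclei without *Rarb* (adjusted p = 0.981 for the difference from members) and *Pbx3* 1288 and 1708 (adjusted p = 0.974). Of 9070 genes, 98 were called (1.08%), 47 higher (0.518%) and 51 lower (0.562%) in members, and all 98 had the same direction in both libraries. With the library as a block, 297 were called (3.27%), 156 higher (1.72%) and 141 lower (1.55%).

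Among genes higher in members, *Bcl11b* had 191 and 204 CPM against 80.5 and 88.8 in nuclei without *Rarb* (2.30-fold, edgeR adjusted p = 0.00839), and it was found in 68.9% and 66.3% of members against 34.6% and 36.6%. Of 17 striatal transcription factors it was the only one called. Of 23 dopamine and cAMP genes, *Adcy5*, the adenylyl cyclase of striatum, *Gng7*, a G protein subunit that works with it, and *Itpr1*, the calcium release channel, rose and none fell, and with the library as a block 6 rose and 1 fell. *Adcy5* had 203 and 167 against 79.3 and 77.2 CPM (adjusted p = 0.0113), *Gng7* 137 and 83.5 against 32.0 and 35.8 (adjusted p = 0.00837), and *Itpr1* 382 and 348 against 169 and 172 (adjusted p = 0.0196). *Drd1* had 29.8 and 24.6 against 16.6 and 9.93 CPM, which did not pass the test (adjusted p = 0.359).

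The axon guidance ligands *Slit2* and *Slit3* were both higher in members. *Slit2* had 519 and 620.1 CPM against 150.3 and 243 (2.81-fold, edgeR adjusted p = 0.00932), and *Slit3* 301 and 299.8 against 87.6 and 101 (3.10-fold, adjusted p = 0.012). *Sema6d*, a transmembrane semaphorin, was lower, with 483 and 528 against 1669.8 and 1596 CPM (adjusted p = 0.00292). The other genes with the largest rise were *Ror1*, *Trhr*, *Car12*, *Arhgap10*, *Nek10*, *Syt10*, *Klhl13*, *Rapgef5*, *Dpy19l3*, *Sv2b* and *Plce1*, by 3.15- to 6.82-fold. *Trhr*, the thyrotropin-releasing hormone receptor, had 38.8 and 32.9 against 7.10 and 7.72 CPM (adjusted p = 0.026). *Rapgef5*, an exchange factor for Rap proteins, had 349 and 301 against 73.4 and 117 (adjusted p = 0.00396). For *Ror1*, 72.7% of the UMIs in members of library 2 came from 1 nucleus.

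Lower in members were *Heg1*, *Kcnh8*, *Dab2*, *Slc12a8*, *Pld5*, *Adamts6*, *Bmper*, *Chsy3*, *Homer2*, *Htr7*, *Rab31* and *B3glct*. *Kcnh8*, a potassium channel of the Elk family, had 0 and 9.58 CPM in members and 114 and 144 in nuclei without *Rarb* (log2 fold change -4.32 ± 0.48 SE, edgeR adjusted p = 1.74e-04). *Pld5* had 80.6 and 87.6 against 457 and 451 (5.36-fold lower, adjusted p = 3.63e-05). *Kcnn2*, a calcium-activated potassium channel, and *Kcnh5* fell by 2.05- and 1.92-fold. Of 18 modulator receptors, *Chrm2*, *Chrm3* and *Htr7* fell and none rose, and with the library as a block 3 fell and 1 rose (*Adra1a*). *Chrm2*, an inhibitory muscarinic receptor, had 77.6 and 98.6 against 304 and 256 CPM (adjusted p = 0.00135), and *Chrm3* had 89.5 and 80.8 against 256 and 226 (adjusted p = 0.00397). *Ptprm*, a receptor phosphatase, had 176 and 226 against 699 and 664 (adjusted p = 0.00397). Potassium channels counted 3 lower and none higher of 34, and 6 lower and 1 higher with the library as a block. Interneuron genes (25), glutamate receptors (22) and GABA receptors (14) had no call in this comparison, although the block gave 3 glutamate receptors higher and 4 lower, 1 GABA receptor higher (*Gabra2*) and 1 interneuron gene lower (*Erbb4*). OPC markers had a median of -1.92 here, with none of 4 called. Of the genes named for the largest changes, *Slit3*, *Trhr*, *Car12*, *Arhgap10*, *Syt10*, *Dpy19l3*, *Sv2b*, *Heg1*, *Slc12a8*, *Adamts6* and *Rab31* lost their call among nuclei of 4540 to 8921 UMIs. *Ror1*, *Bmper*, *Chsy3* and *Rab31* lost theirs in DESeq2, and *Trhr*, *Bmper*, *Chsy3*, *Htr7* and *Rab31* with at least 5 UMIs of *Foxp2* and 3 of *Rarb*.

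The third comparison asked whether members differ from Foxp2-Rarb nuclei that hold *Gpr149*, *Pth2r* or *Sema3e*. Outside the genes of the rule and the label, 1 of 9070 genes was called (0.011%), and it was not a listed gene. With the library as a block, 5 listed genes were called, *Htr1f* and *Chrm2* higher and *Grm3*, *Lhfpl3* and *Adarb2* lower, with the values given below. An unadjusted edgeR p under 0.05 was found for 407 of the 9070 genes, a share below the 0.05 that evenly spread p-values would give. DESeq2 called 2. Without a filter on low counts 28 genes were called, 5 higher and 23 lower. Among nuclei of 4540 to 8921 UMIs 11 were called, 4 higher and 7 lower. The gene called was *Ndst4*, a heparan sulfate sulfotransferase, with 92.5 and 107 CPM in members and 6.55 and 26.7 in the other nuclei (edgeR adjusted p = 0.0448). Of its 31 UMIs in members of library 2, 29 came from 1 nucleus, and without likely doublets the adjusted p was 0.93. By rule, *Sema3e*, *Gpr149* and *Pth2r* were at 0 in members and had 438, 198 and 121 UMIs in the other nuclei.

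Side by side with these nuclei, *Meis2* had 2525 and 2634 CPM in members and 2398 and 2777 in the others, *Tshz1* 382 and 386 against 365 and 361, *Drd1* 29.8 and 24.6 against 30.6 and 29.0, and *Penk* 59.7 and 53.4 against 59.0 and 40.4. With the library as a block, 20 genes were called (0.221%), 7 higher (0.0772%) and 13 lower (0.143%). *Sgcz* and *Tmem132d* were picked from those 20 after their values were seen, and the other genes given here are the listed ones among them. *Sgcz*, a sarcoglycan, had 427 and 569 CPM in members and 1332 and 1882 in the others (3.28-fold lower, edgeR adjusted p = 0.0723, and 2.37e-06 with the block), where 55.4% of its UMIs in 1 library came from a single nucleus. *Htr1f* had 1134 and 1033 against 649 and 677 (adjusted p = 0.917, and 0.0224 with the block), *Chrm2* 77.6 and 98.6 against 41.5 and 37.3 (0.291, and 0.0319 with the block), and *Tmem132d* 373 and 424 against 83.0 and 208 (0.386, and 0.0224 with the block). *Grm3*, a metabotropic glutamate receptor, had 161 and 224 CPM in members and 308 and 379.6 in the others (1.79-fold lower, adjusted p = 0.791, and 0.0224 with the block). *Adarb2* had 1761 and 1967 against 3695 and 2899.5 (0.791, and 0.00652 with the block). The OPC marker *Lhfpl3* had 355 and 350.4 against 972 and 591 (0.381, and 0.028 with the block), and the OPC list summed to 361 and 372 against 983 and 613 CPM, with *Cspg4* at 0 in both libraries of the other nuclei and *Pdgfra* and *Cspg4* at 0 in members of library 2. The part of OPC RNA in this comparison was not tested. In library 2 of these other nuclei, 1 nucleus held 77991 of 457972 UMIs (17.0%).

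Within members, *Sulf1* and *Gulp1* were found together more often than the product of their shares, while the pair was found with *Col6a1* or *Casz1* about as often as that product when either gene of a pair was counted. Of 143 members, 70 had *Sulf1* or *Gulp1*, 89 had *Col6a1* or *Casz1*, 45 had a gene of both pairs and 29 had none. The share with both, divided by the product of the shares, was 0.968 in library 2 and 1.07 in library 3. With at least 2 UMIs for each pair it was 0.740 and 1.06. *Sulf1* with *Gulp1* had a ratio of 1.41 and 1.59, and *Col6a1* with *Casz1* a mean of 0.999 ± 0.00131 (SD, n = 2 libraries). Single genes across the pairs varied more between libraries, with 0.75 and 1.47 for *Gulp1* with *Casz1*, 0.562 and 1.19 for *Sulf1* with *Casz1*, 1.17 and 0.907 for *Sulf1* with *Col6a1*, and 1.05 and 0.968 for *Gulp1* with *Col6a1*. These ratios are descriptions without a test, and the nuclei share their library and differ in depth.

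**Figure D3:**
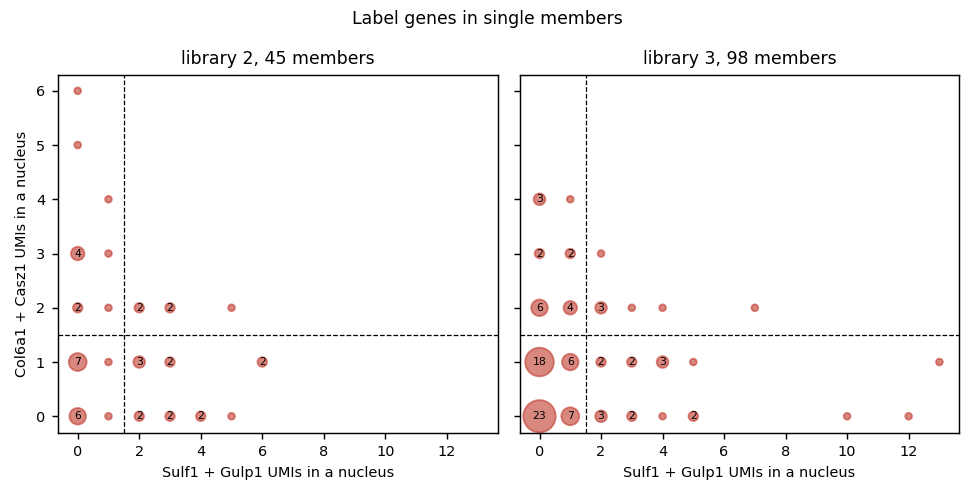
UMIs of *Sulf1* and *Gulp1* (horizontal) against UMIs of *Col6a1* and *Casz1* (vertical) in single members of library 2 (45) and library 3 (98), with the area of a point and its number giving the nuclei at that place and dashed lines midway between 1 and 2 UMIs. Nuclei lie along both axes, and 5 in library 2 and 7 in library 3 lie beyond both lines, all of them with exactly 2 UMIs of at least 1 pair.

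Members were put in 2 classes by at least 2 UMIs of 1 pair and fewer than 2 of the other. The Sulf1-Gulp1 class held 14 and 19 nuclei in libraries 2 and 3 and the Col6a1-Casz1 class 11 and 18, while 12 members had both and 69 neither. Median UMIs were 8225.5 and 7650 in the first class and 5563 and 5693 in the second, so the classes differed in depth. *Meis2* had 2567 and 2155 CPM in the Sulf1-Gulp1 class and 2494 and 2548 in the Col6a1-Casz1 class (edgeR adjusted p = 0.993), and *Otof* 448 and 235 against 494 and 261 (adjusted p = 0.993). Apart from the 4 genes that set the classes, 20 of 2749 genes tested were called (0.728%), 15 higher (0.546%) and 5 lower (0.182%) in the Sulf1-Gulp1 class, all with the same direction in both libraries. With the library as a block, 15 were called (0.546%), 12 higher (0.437%) and 3 lower (0.109%). Without likely doublets, 64 of 2202 genes were called, 44 higher and 20 lower.

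Of the genes higher in the Sulf1-Gulp1 class, *Zfp804a*, a zinc finger gene, had 367 and 516 CPM against 12.7 and 71.7 (8.83-fold, log2 fold change 3.14 ± 0.46 SE, edgeR adjusted p = 6.18e-04). It was found in 12 of 14 and 15 of 19 nuclei of that class and in 1 of 11 and 4 of 18 of the other. *Zfp804b* had 1369 and 1083 against 266 and 528 (adjusted p = 0.00767). *Ptprd*, a synaptic receptor phosphatase, had 3194 and 2992 against 911 and 1258 (2.84-fold, adjusted p = 0.00516), and *Kcnb2*, a delayed rectifier channel, 962 and 717 against 215 and 267 (adjusted p = 0.00343). *Chsy3*, a chondroitin synthase, *Pcdh11x*, *Pdzrn4* and *Cntnap5b* rose by 3.16- to 4.68-fold. *Gpc5*, a heparan sulfate proteoglycan, and *Il1rapl2* rose by 10.3- and 6.07-fold, but 78.6% of the *Gpc5* UMIs of the class in library 2 and 60.7% of those of *Il1rapl2* in library 3 came from 1 nucleus, and their adjusted p with the library as a block was 0.0654 and 0.0771.

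Higher in the Col6a1-Casz1 class were *Plce1*, *Sdk2*, *Vwc2l*, *Zbtb20* and *Trpm3*. *Vwc2l*, a secreted protein with a von Willebrand domain, had 949 and 1316 CPM there and 424 and 367 in the Sulf1-Gulp1 class (2.89-fold, edgeR adjusted p = 0.00562). *Zbtb20*, a zinc finger repressor, had 747 and 743 against 277 and 309.5 (adjusted p = 0.0197), and *Trpm3*, a cation channel, 2721 and 3082 against 1597 and 1020.3 (adjusted p = 0.0427). *Sdk2*, an adhesion molecule, and *Plce1*, a phospholipase C, had adjusted p of 0.0349 and 0.0237, and of 0.0654 and 0.0771 with the library as a block. Without a filter on low counts, *Ptprd*, *Sdk2*, *Trpm3*, *Vwc2l*, *Zbtb20* and *Zfp804b* lost their call, in DESeq2 *Pcdh11x* and *Sdk2* did, and with nuclei classed by the pair with more UMIs *Chsy3*, *Ptprd* and *Zbtb20* did.

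**Figure D4:**
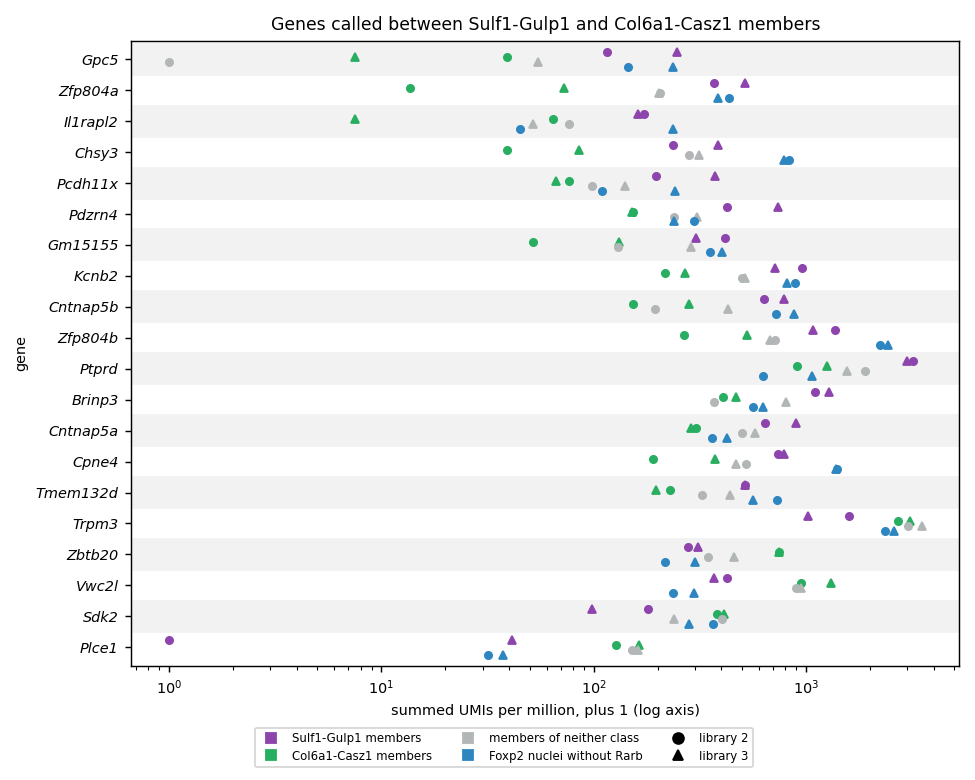
CPM plus 1 (log axis) of the 20 called genes in Sulf1-Gulp1 members, Col6a1-Casz1 members, members of neither class and *Foxp2* nuclei without *Rarb*, with circles for library 2 and triangles for library 3. The genes were picked by a call on these same sums, so it is no separate result that the classes do not overlap for any of them. In both libraries the Sulf1-Gulp1 class lies between the Col6a1-Casz1 class and the nuclei without *Rarb* for 7 of the 20. These are *Zfp804b*, *Cpne4*, *Chsy3*, *Vwc2l*, *Cntnap5b*, *Tmem132d* and *Zbtb20*.

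Some of these class genes were also called between members and *Foxp2* nuclei without *Rarb*. *Zfp804b* had 2233 and 2425 CPM in nuclei without *Rarb*, 1369 and 1083 in the Sulf1-Gulp1 class and 266 and 528 in the Col6a1-Casz1 class. *Cpne4*, a copine, had 1405 and 1389.7 CPM in nuclei without *Rarb*, 742 and 791 in the Sulf1-Gulp1 class and 189.9 and 371 in the other. *Chsy3* had 834 and 787 CPM, 236 and 384, and 38 and 84.7, in the same order. *Vwc2l* ran the other way, with 235.5 and 295 CPM in nuclei without *Rarb*, 424 and 367 in the Sulf1-Gulp1 class and 949 and 1316 in the Col6a1-Casz1 class. For these 4 genes, picked after their values were seen, the Sulf1-Gulp1 class lay between the other 2 groups in both libraries. Of all 20 class genes, 7 had this order in both libraries and 13 did not, and the 7 include *Cntnap5b*, *Tmem132d* and *Zbtb20*, which were not called against nuclei without *Rarb*. *Tmem132d* also lost its call between the classes with the library as a block (edgeR adjusted p = 0.0771). The fifth class gene called against nuclei without *Rarb*, *Plce1*, did not share this order in library 2, with 30.8 and 36.4 CPM in nuclei without *Rarb*, 0 and 40.1 in the Sulf1-Gulp1 class and 127 and 163 in the Col6a1-Casz1 class. *Ptprd*, which was not called against nuclei without *Rarb* (adjusted p = 0.108), did not share it either, since nuclei without *Rarb* had 629.6 and 1062 CPM, below the Sulf1-Gulp1 class.

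The same classes were formed among the Foxp2-Rarb nuclei with *Gpr149*, *Pth2r* or *Sema3e*, a step added after the data were seen. Library 2 had 7 nuclei of the Sulf1-Gulp1 class, too few for a sum, so library 3 alone (30 and 28 nuclei) gave values, with no test. All 20 class genes had the direction seen in members, 15 higher and 5 lower in the Sulf1-Gulp1 class. No share over all tested genes is given beside this count, so it cannot tell how far the classes repeat in these nuclei. Median UMIs were 8149 and 6723.5, so these classes differed in depth as well. *Zfp804a* had 443.5 CPM in the Sulf1-Gulp1 class and 149.9 in the Col6a1-Casz1 class, *Kcnb2* 667 and 206, *Ptprd* 2618 and 1139, *Vwc2l* 434 and 1289, and *Zbtb20* 323 and 677. The smallest differences were those of *Plce1* (96.2 and 107.1 CPM) and *Pcdh11x* (261 and 227).

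The promoter table also allowed a search for the core motif of forkhead factors such as *Foxp2*. Of the 464 genes higher in members than in nuclei without *Foxp2*, 333 matched a promoter entry, as did 349 of the 462 lower genes. The forkhead core TGTTTAC, searched on both strands, was in 11 of 497 windows of the higher genes (2.21%), in 10 of 515 of the lower genes (1.94%), in 2.62% of windows of all genes tested and in 3.65% of all windows. The retinoic acid element was in 1 window of the higher genes (0.201%) and 1 of the lower genes (0.194%). It was in 4 windows of all genes tested (0.0434%) and in 32 of all windows (0.0974%). *Rdh10* and *Rxrg* were not among the genes that hold it. These shares are descriptions, and no match says only that these letters are not in the window.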

How the data were processed

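Reads had been aligned to mm10 and assigned to barcodes with Cell Ranger 7.0.1, and the authors deposited a matrix of unnormalized UMI counts for each library. Gene positions are from GENCODE vM21 (GRCm38), in which 32235 of 32285 identifiers were found. The members and the gene lists were chosen with earlier results of these data known. Counts were summed over nuclei per group and library and tested with edgeR 4.0.16 in R 4.3.3 (quasi-likelihood, TMM, filterByExpr, Benjamini-Hochberg, threshold 0.05), in 1 fit over 4 groups of nuclei (8 sums), and within members in another with at least 10 nuclei per sum. Genes of the rule and *Sulf1*, *Gulp1*, *Col6a1* and *Casz1* stayed in the fits and were not counted. The text names, per comparison, the 12 (within members 10) genes with the largest change in each direction among called genes with at least 20 CPM in the higher group and the same direction in both libraries, unnamed genes left out, and the listed genes. A few genes that this rule names are not reported here. The 3 libraries held 8078394, 24354374 and 33049068 UMIs. No doublet caller was run, and an alternative removed the 5% of GABAergic nuclei highest in glial markers and the 5% highest in UMIs. Sums of the same library share that library, and their deviations correlated at 0.127 to 0.328, so the library was also used as a block. DESeq2 1.42.0, another filter, depth windows and other thresholds were tried as alternatives.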

Additional observations from a re-analysis of the deposited data

Results flagged for a closer look

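Library 1 was used in no comparison, yet 57 of its nuclei met the minimums for *Foxp2*, *Rarb* and *Gad1*-*Gad2*, which is a signal in data outside the main measurement. Their median depth was 18486 UMIs, and 38 of the 57 held more UMIs of *Slc17a7* and *Slc17a6* than of *Gad1* and *Gad2*. Of the 57, 21 had 0 UMIs of *Gpr149*, *Pth2r* and *Sema3e*. Their *Meis2* level was 573 CPM, against 1795 and 1389 CPM in nuclei chosen the same way in libraries 2 and 3. Transporter RNA was at 279 CPM in these nuclei and at 327 CPM in nuclei with oligodendrocyte genes of the same library.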

How the results depend on the processing

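The fit with the library as a replicate block called 1448 genes against nuclei without *Foxp2*, 297 against *Foxp2* nuclei without *Rarb* and 20 against nuclei with *Gpr149*, *Pth2r* or *Sema3e*, where the fit without it called 926, 98 and 1. Between the classes of members the block called 15 in place of 20. DESeq2's Wald test called 607, 2 and 13 against nuclei without *Foxp2*, against nuclei with *Gpr149*, *Pth2r* or *Sema3e* and between the classes. Without a filter on low counts, 28 genes were called against nuclei with *Gpr149*, *Pth2r* or *Sema3e*, 189 against nuclei without *Rarb* and 13 between the classes. Compared with all other GABAergic nuclei, members had 333 calls, 101 higher and 232 lower, and without a filter the calls against nuclei without *Foxp2* were 417 higher and 658 lower. Within a window of 4540 to 8921 UMIs, 11 genes were called against nuclei with *Gpr149*, *Pth2r* or *Sema3e*, and *Ndst4* reversed there to a log2 fold change of -1.51. With at least 3 UMIs in those comparison nuclei, an alternative chosen after the data were seen, 3 were called. Without likely doublets 64 genes were called between the classes. The share of members was 12.2% with 1 UMI of *Rarb* and 6.32% with 3, and 7.44% to 9.41% with 1 library left out. The co-detection ratio of both pairs was 1.02 ± 0.0689 (SD, n = 2 libraries), 0.909 after thinning, 0.898 with 2 UMIs and 0.968 to 1.07 with 1 library left out. The cause of these shifts was not tested.

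With 1 library left out no spread is left for a test. Over the other alternatives, 32 of the 64 called gene comparisons named by rule lost significance at least once in the same direction, most often in the depth window, which holds fewer nuclei. Classes set by 1 UMI and none, and the split by dopamine receptors, were not run for lack of nuclei. Each group rests on sums of 2 libraries, and groups were set by detected UMIs, so a nucleus without a UMI of *Gpr149*, *Pth2r* or *Sema3e* may still express them.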
